A study of Rattus norvegicus with 12 samples.

Results

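Pgbd5, Tcim and Zc3h6 are 3 genes with few described functions that were selected on these same arrays because their signal rose strongly when fibroblasts lost attachment. Their probe sets were all those that the platform annotation pairs with 1 of these symbols alone. A probe set is a group of short probes that reports the level of a transcript as brightness. There were 3 such probe sets, 1 per gene, among 31042 that were not controls, and the 3 genes stood among 14217 genes measured. Because the rise chose the genes, their changes are given below as a description and were not tested.

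The cells were F111, 1 established rat fibroblast line, with the same medium and serum in both groups, and the labels name no altered gene. A16 cells grew on plastic for 16 h, and NA16 cells were kept for 16 h in suspension, on a surface to which they cannot attach. The study describes a loss of viability in suspension, so NA16 RNA comes from a population after that loss. Each state had 3 Affymetrix rat arrays, named biological replicate 1, biological replicate 2 and technical replicate 2. In RNA from whole cultures, fewer cells that express a gene and less RNA per cell cannot be told apart.

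The labels point to biological replicate 1 as the origin of technical replicate 2, and they were averaged, which left n = 2 replicates per state. The arrays themselves fell differently in the 2 states. In A16 the SD of the log2 difference over probe sets was 0.175 between technical replicate 2 and biological replicate 1, against 0.299 for biological replicate 2. In NA16 it was 0.269 for biological replicate 1 and 0.175 for biological replicate 2. The changes of the 3 genes and the counts of called genes are therefore also given with other treatments of technical replicate 2. Of 6 fibroblast markers, Col1a1, Col1a2 and Vim lay between 13.69 and 14.88 log2 RMA on all 6 arrays, Col3a1 and Thy1 between 11.45 and 13.19, and Pdgfrb between 7.39 and 9.25. Pdgfrb was higher in NA16 by 1.40 (limma adjusted p = 0.00108) and Thy1 by 0.47 (adjusted p = 0.0435). Of 5 neuronal markers, Rbfox3, Snap25 and Tubb3 lay between 5.71 and 7.13 and Syp between 8.90 and 9.34, and 1, Map2, was higher in NA16 by 1.16 on the log2 scale (limma adjusted p = 0.000566).

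Pgbd5 encodes a protein that vertebrates derived from the transposase of a piggyBac DNA transposon, the enzyme that cuts and moves the element. It is known mainly from the brain and from solid tumours of childhood, and DNA rearrangements credited to it need the end joining pathway of double-strand break repair. Tcim encodes a small protein, also called TC1, that binds Chibby, the product of Cby1, and so relieves its restraint of beta-catenin, the effector of Wnt signalling. Zc3h6 encodes a protein with zinc fingers of the CCCH type, which often bind RNA, and its nearest relatives are Zc3h4 and Zc3h8. Zc3h4 limits transcription of non-coding RNA, and Zc3h8 works with a complex for transcription of small nuclear RNA genes.

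In the GRCr8 rat assembly the RefSeq gene table placed Pgbd5 at chr19:69234171-69299315, Tcim at chr16:74298344-74299637 and Zc3h6 at chr3:136656116-136717560. Positions of the array probes within these genes were not used here. Of the 3 genes, Pgbd5 and Zc3h6 had an entry among the RefSeq promoter sequences, and Tcim was not found there. The 250 bases before the annotated start are shown for both, since these genes rose together, with capitals at each match to the motifs searched. For Pgbd5 they are chr19:69299316-69299565 on the minus strand, and for Zc3h6 chr3:136657164-136657413 on the plus strand, a start that lies inside the span of the gene table.
Pgbd5: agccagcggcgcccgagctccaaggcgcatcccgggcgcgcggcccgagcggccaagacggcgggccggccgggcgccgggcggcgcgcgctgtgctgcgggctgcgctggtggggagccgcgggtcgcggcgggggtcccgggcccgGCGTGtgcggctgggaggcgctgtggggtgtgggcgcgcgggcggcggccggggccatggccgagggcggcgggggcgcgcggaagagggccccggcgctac
Zc3h6: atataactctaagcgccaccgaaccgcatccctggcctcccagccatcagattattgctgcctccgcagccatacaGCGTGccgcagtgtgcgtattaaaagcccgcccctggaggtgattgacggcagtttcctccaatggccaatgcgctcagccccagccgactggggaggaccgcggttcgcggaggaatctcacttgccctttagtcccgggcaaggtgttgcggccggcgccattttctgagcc

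The capitals in both sequences mark GCGTG, a core of the hypoxia response element, which was searched on both strands in windows of 300 bases that also hold the first 50 of the transcript. It stood 102 bases before the annotated start of Pgbd5 and 174 bases before that of Zc3h6. Where transcription of these genes starts in these cells was not tested. The Pgbd5 window held a further match on the opposite strand, 16 bases into the transcript. GCGTG occurred in 29.7% of all 33469 promoter windows. ACGTG (19.3% of all windows), the E-box CACGTG (6.42%), which contains ACGTG, the forkhead motif GTAAACA (3.78%), the AP-1 motif TGANTCA (7.33%) and the CEBP-ATF composite TGATGNAA (3.98%) had no match in either window. G and C made up 81.7% of the Pgbd5 window and 60.7% of the Zc3h6 window, with a median of 51.7% over all windows. The Pgbd5 window was richer in G and C than 99.5% of windows. The motif shares are over all windows and were not matched for this content, so they are no background for such a window.

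Pgbd5 went from near the bottom of the signal scale in adherent cells to a clear signal in suspension. Its log2 RMA signal in A16 was 4.62 in biological replicate 1, 4.96 in biological replicate 2 and 5.05 in technical replicate 2. In NA16 it was 8.57, 8.81 and 8.86 in the same order. The lowest NA16 array thus lay 3.52 above the highest A16 array. Over n = 2 replicates the signal rose from 4.90 ± 0.08 to 8.76 ± 0.07 (SD, n = 2), a log2 change of 3.87 or 14.6-fold. On the linear scale the A16 signals were 24.6, 31.0 and 33.1, close to the lowest RMA values of the arrays, 16.1 to 17.6. The size of the Pgbd5 change is therefore sensitive to any constant that the values may hold, and with 16 subtracted its log2 change was 4.95.

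Tcim also rose, with its highest signal on the NA16 array of biological replicate 1. In A16 the log2 RMA signal of Tcim was 6.74 in biological replicate 1, 6.90 in biological replicate 2 and 6.77 in technical replicate 2. In NA16 it was 10.99, 10.58 and 10.54. In the RMA columns the A16 arrays of Tcim spanned 0.16 and its NA16 arrays 0.45, and the states were 3.65 apart at their nearest. The mean rose from 6.82 ± 0.10 to 10.67 ± 0.13 (SD, n = 2), a log2 change of 3.85 or 14.4-fold.

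In the RMA columns Zc3h6 had a wider range in adherent cells than in suspension. In A16 its log2 RMA signal was 5.41 in biological replicate 1, 5.85 in biological replicate 2 and 5.99 in technical replicate 2. In NA16 it was 9.59, 9.48 and 9.54. The A16 range of 0.58 was wider than that of 95.3% of all genes, whose median range was 0.23, and it came from the low array of biological replicate 1. The same array was the lowest of the A16 arrays for Pgbd5. The mean of Zc3h6 rose from 5.77 ± 0.11 to 9.52 ± 0.06 (SD, n = 2), a log2 change of 3.75 or 13.5-fold, with 3.49 between the nearest arrays of the states.

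**Figure D1:**
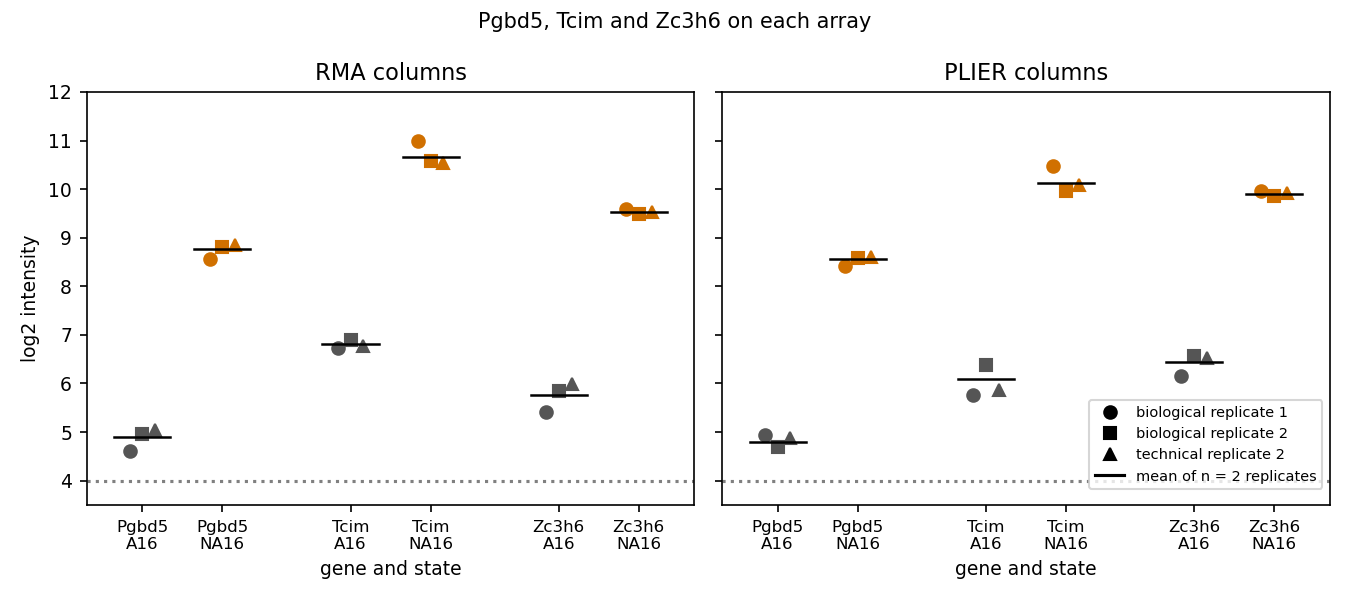
Log2 intensity (y axis) of the probe sets of Pgbd5, Tcim and Zc3h6 in A16 and NA16 cells (x axis) on each of the 6 arrays, in the RMA columns on the left and the PLIER columns on the right. Symbols mark the arrays, short lines the mean of n = 2 replicates, and the dotted line an intensity of 16; for each gene the NA16 arrays lie above the A16 arrays, by 3.28 or more.

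PLIER, the other algorithm the authors applied to the same arrays, gave a like picture with other sizes. Pgbd5 was at 4.93, 4.70 and 4.87 in A16 and at 8.42, 8.59 and 8.61 in NA16 on the log2 PLIER scale, a change of 3.76. Tcim was at 5.76, 6.39 and 5.87 in A16 and at 10.48, 9.97 and 10.08 in NA16, a change of 4.02. The A16 arrays of Tcim spanned 0.63 here, against 0.16 in the RMA columns. Zc3h6 was at 6.15, 6.57 and 6.52 in A16 and at 9.96, 9.85 and 9.92 in NA16, a change of 3.45. The order of the 3 changes thus differed between the algorithms, and no order among the genes is drawn. In the PLIER columns the low Zc3h6 value of biological replicate 1 in A16 was again present, and the low Pgbd5 value was not.

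Across all genes 38.9% were called by limma at an adjusted p below 0.05, 21.9% higher and 16.9% lower in NA16. With technical replicate 2 left out, 4205 genes were called, against 5524 with the averaging used here. Of all probe sets, 21.2% had every NA16 array above every A16 array in log2 RMA, as the 3 genes had. By size of rise in the RMA columns Pgbd5 was number 7, Tcim number 8 and Zc3h6 number 10 of 14217 genes. Ero1a, an oxidase of the endoplasmic reticulum, stood just above them with a log2 change of 3.90, C1qtnf1, a secreted C1q-related protein, between them at 3.76, and Klhl40 just below at 3.67. In the PLIER columns, counted over all probe sets, Tcim was number 16, Pgbd5 number 25 and Zc3h6 number 46, against 10, 9 and 12 in the RMA columns.

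**Figure D2:**
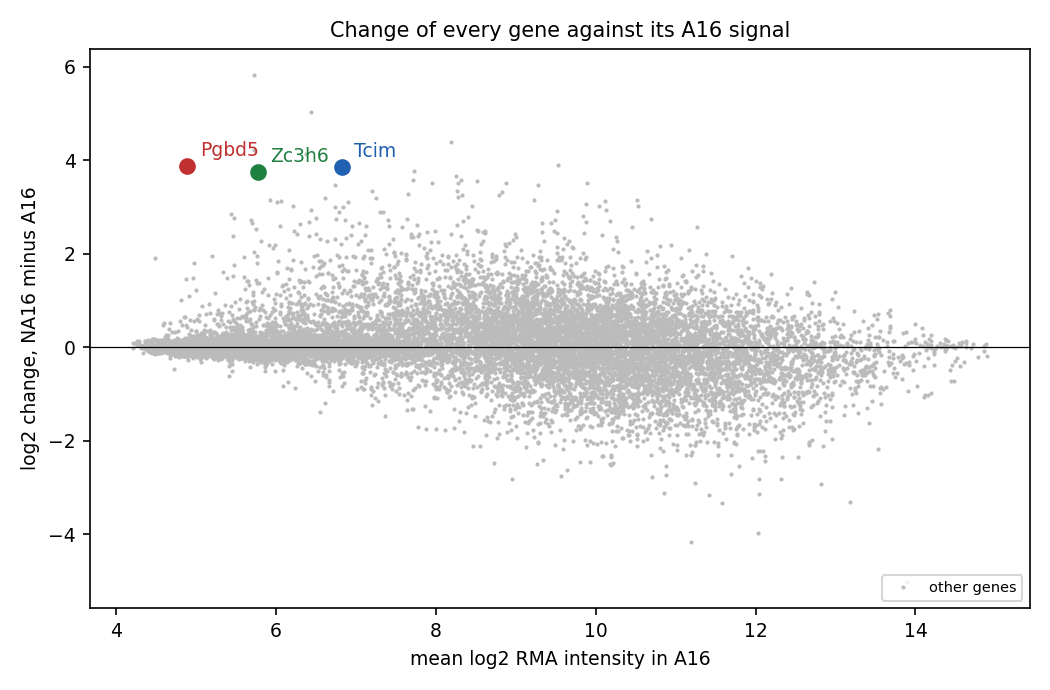
Log2 change from A16 to NA16 (y axis) of each of 14217 genes against its own mean log2 RMA signal in A16 (x axis), with Pgbd5, Tcim and Zc3h6 in colour. The 3 genes lie at changes of 3.75 to 3.87 with A16 signals of 4.90 to 6.82; signals of different probe sets do not compare amounts of RNA.

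The genes with the most similar course over the 6 arrays were sought by the root mean square difference of their log2 RMA values, each centred on its own mean. This measure is a description of 6 arrays and, like the choice of the genes, it rests on the rise. For Pgbd5 the nearest was Zc3h6, with a difference of 0.13 on the log2 scale. It was followed by Ero1a and C1qtnf1 (both 0.14), Pik3ip1, an inhibitor of PI3 kinase (0.18), and Klhl40 (0.19). For Zc3h6 the nearest was Pgbd5, followed by Mipol1 (0.17), Pik3ip1 (0.18), Tcim (0.21) and C1qtnf1 (0.21). Tcim was nearest to the immediate-early gene Fos and to Mipol1 (both 0.19), then to Zc3h6 (0.21), Ero1a (0.22) and C1qtnf1 (0.25). Pgbd5 was not among the 5 nearest to Tcim, where it was number 7 with a difference of 0.26. Some of these genes had a second probe set that did not follow, such as Fos at -0.07 and Pik3ip1 at -0.18, whereas the second probe sets of Ero1a (4.24) and C1qtnf1 (3.60) did. Pgbd5, Tcim and Zc3h6 had no second probe set with which to check their rise.

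Next to Zc3h6 on chromosome 3 lies its relative Zc3h8, and this gene also rose. The gap between the genes was 9.12 kb, and in the promoter table they ran away from each other, with starts 10.5 kb apart. Zc3h8 was at 9.52, 9.49 and 9.61 log2 RMA in A16 and at 10.94, 10.70 and 10.75 in NA16. These arrays did not overlap, and the mean rose from 9.53 ± 0.05 to 10.77 ± 0.10 (SD, n = 2), 2.37-fold (limma adjusted p = 0.000304). Its second probe set changed by 1.13, close to the 1.24 of the first. The call of Zc3h8 held in 16 of 16 alternatives, with log2 changes of 1.17 to 1.35.

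The other neighbours of Zc3h6 moved in no common direction. Tmem87b, a Golgi membrane protein gene 105 kb away, was 1.43-fold higher (log2 change 0.51, adjusted p = 0.0111), but did not pass without NA16 replicate 2 (log2 change 0.45, adjusted p = 0.11). It also did not pass with technical replicate 2 left out (adjusted p = 0.052), averaged with biological replicate 2 (adjusted p = 0.051) or averaged with its nearest array (adjusted p = 0.058). The second probe set of Tmem87b was at 0.21. Polr1b, which encodes the second largest subunit of RNA polymerase I, lay 69.6 kb away and fell. It was at 9.47, 9.28 and 9.43 in A16 and at 7.95, 7.93 and 8.01 in NA16, 2.65-fold lower (adjusted p = 0.000211). Ttl, the tubulin tyrosine ligase gene 34.5 kb away, had a log2 change of 0.06 (adjusted p = 0.794), but its other probe sets were at -0.70 and -0.90. Mertk (-0.00) and Chchd5 (-0.14) were not called, and their second probe sets were at 0.36 and 0.08.

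None of the 6 measured neighbours of Pgbd5 and none of the 6 of Tcim was called by limma, beside 38.9% of all genes, with 1 of the 12, Cog2, at an unadjusted p below 0.05, and 1, Galnt2, by the plain test of the methods before adjustment. Beside Pgbd5, Galnt2, at 11.9 kb the nearest, had a log2 change of 0.21 (adjusted p = 0.201). The other probe sets of Galnt2 lay between -0.26 and -0.02. Cog2, 92.0 kb away, was at 0.41 (adjusted p = 0.0507) and passed in 8 of 16 alternatives, among them the PLIER columns at 0.51 (adjusted p = 0.021). The second probe set of Cog2 was at 0.11, and the mean of its probe sets, at 0.26, did not pass. Cox6c-ps1, Urb2, Agt and Capn9 lay between -0.27 and -0.10. Beside Tcim, Ido1, Adam18, Adam3a, Zmat4, Sfrp1 and Golga7 lay between -0.05 and 0.23, at gaps of 153 kb to 1170 kb. In all, 2 of 18 neighbouring genes were higher, 1 lower and 15 not called, beside 38.9% of all genes called, with a median change of 0.02 against 0.01 over all genes.

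**Figure D3:**
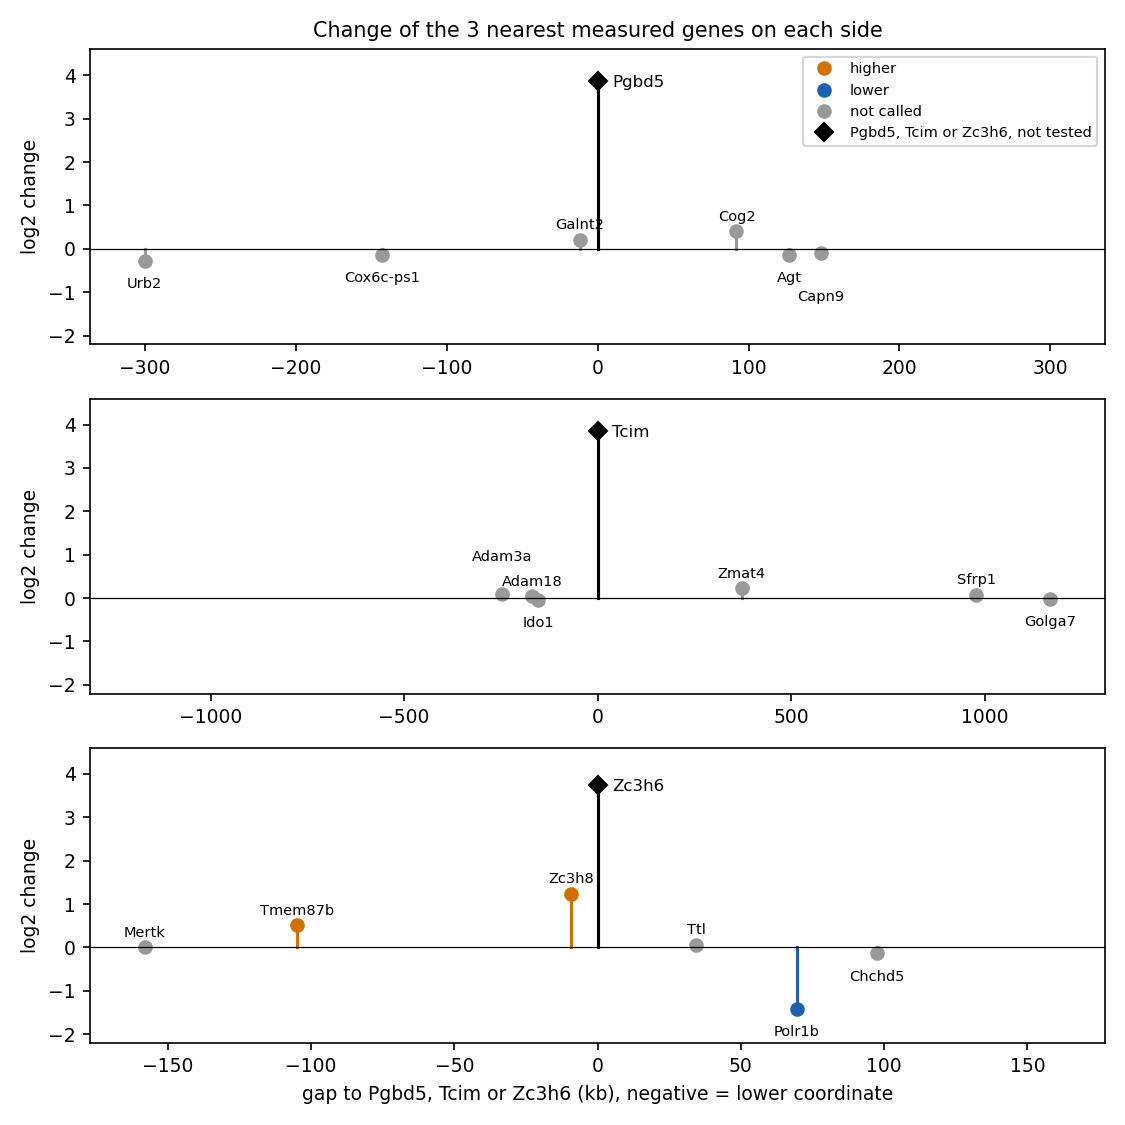
Log2 change from A16 to NA16 (y axis) of the 3 nearest measured genes on each side of Pgbd5, Tcim and Zc3h6, by the gap between the genes in kb (x axis, a scale of its own in each panel). Points are neighbouring genes coloured by call and diamonds the 3 genes; Zc3h8 at 1.24, Tmem87b at 0.51 and Polr1b at -1.41 are the called neighbours.

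The wider CCCH zinc finger family, to which Zc3h6 belongs, changed in both directions and by less. Of 46 other genes measured, 18 were higher, 8 lower and 20 not called. Thus 56.5% were called beside 38.9% of all genes, with a median change of 0.22. The 38.9% covers genes of every signal level, and the part of signal level in this difference was not tested. Zfp36, which encodes tristetraprolin, a factor in the decay of short-lived mRNA, was at 9.79, 10.49 and 9.73 in A16 and at 11.47, 12.03 and 11.83 in NA16, 3.29-fold higher (adjusted p = 0.00176). Zc3h12a, the gene of the mRNA-cleaving enzyme Regnase-1, was 2.70-fold higher (adjusted p = 0.00285). Zc3h18, which links capped RNA to its decay machinery, was 2.86-fold lower (adjusted p = 0.000205).

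Of the closest relatives of Zc3h6, Zc3h4 went the other way from Zc3h8. Zc3h4 was at 10.57, 10.50 and 10.62 in A16 and at 9.97, 10.15 and 10.09 in NA16, 1.37-fold lower (log2 change -0.46, adjusted p = 0.0192). It did not pass when A16 replicate 1 was left out (-0.41, adjusted p = 0.084), NA16 replicate 1 (-0.40, adjusted p = 0.18) or NA16 replicate 2 (-0.52, adjusted p = 0.057), nor, by a small margin, without technical replicate 2 (-0.48, adjusted p = 0.05). The second probe set of Zc3h4 was at -0.24 by RMA and at 0.03 by PLIER.

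Other genes of transposon origin, the company of Pgbd5, were called about as often as genes in general. Of 23 measured, 4 were higher, 5 lower and 14 not called, or 39.1%, with a median change of -0.03. Tigd2, derived from a Tigger transposon, was at 7.79, 7.76 and 7.82 in A16 and at 9.36, 9.20 and 9.28 in NA16, 2.78-fold higher (adjusted p = 0.00015). Thap12, with a DNA-binding domain shared with P element transposase, was 2.91-fold lower (adjusted p = 0.000191). Zbed4, related to hAT transposases, was 1.99-fold lower (adjusted p = 0.00103) and Zbed3 1.85-fold higher (log2 change 0.89, adjusted p = 0.00212), or 1.39 in the PLIER columns. Pgbd1, the other piggyBac-derived gene of the list of closest relatives, was not among the genes measured.

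Genes of double-strand break end joining, the repair pathway linked to Pgbd5, split by direction. Of 21 measured, 8 were higher, 6 lower and 7 not called. Thus 66.7% were called beside 38.9% of all genes, with a median change of 0.23. As for the CCCH genes, the part of signal level in this difference was not tested. Xrcc4, the partner of DNA ligase IV, was at 8.21, 7.99 and 8.26 in A16 and at 10.15, 9.59 and 9.74 in NA16, 3.15-fold higher (adjusted p = 0.000346), while its second probe set changed by 0.24 and the mean of both by 0.95. Nhej1, the gene of the ligation factor XLF, rose from 7.62 ± 0.07 to 8.86 ± 0.06 (SD, n = 2), 2.36-fold (adjusted p = 0.000286). Rif1, which protects broken ends from resection, was 2.50-fold lower (adjusted p = 0.000415), with all 3 of its probe sets between -1.32 and -1.01. Mdc1, an adaptor of damage signalling, was 2.14-fold lower (adjusted p = 0.0266), with a log2 change of -1.10 that was -0.84 without A16 replicate 2 (adjusted p = 0.15) and -0.65 without NA16 replicate 1. Mdc1 also missed the threshold with technical replicate 2 left out (adjusted p = 0.063) and with a trended, robust variance (adjusted p = 0.054).

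Partners and targets of beta-catenin, the setting in which Tcim is known, changed in both directions. Of 34 measured, 5 were higher, 6 lower and 23 not called, so that 32.4% were called beside 38.9% of all genes, with a median change of 0.06. The count moved both ways with the processing, as did that of all genes. With technical replicate 2 left out 5 of the 34 were called, beside 4205 of all 14217 genes. With the replicate number as a block in the fit it was 19, beside 7019 of all genes. Cby1, the gene of the protein that Tcim binds, was at 8.31, 8.35 and 8.44 in A16 and at 8.68, 8.77 and 8.89 in NA16, 1.33-fold higher (log2 change 0.41, adjusted p = 0.0219). Cby1 did not pass without A16 replicate 1 or 2 (adjusted p = 0.063 and 0.08) or NA16 replicate 1 or 2 (adjusted p = 0.17 and 0.14). It also missed the threshold with technical replicate 2 left out (adjusted p = 0.075) or averaged with its nearest array (adjusted p = 0.065), and for the mean of its probe sets (log2 change 0.29, adjusted p = 0.069). Ctnnb1, beta-catenin itself, overlapped between the states at 13.26 to 13.45 in A16 and 13.42 to 13.58 in NA16 (log2 change 0.07, adjusted p = 0.723), and its other probe sets lay between -0.56 and -0.01.

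Of the called genes of that list, the receptor gene Met was 2.48-fold lower (log2 change -1.31, adjusted p = 0.0102; -0.87 without A16 replicate 2) and the cyclin gene Ccnd1 2.03-fold lower (adjusted p = 0.00547). Znrf3, a ubiquitin ligase gene that lowers Wnt receptors, was 1.66-fold higher (adjusted p = 0.00349). Axin1, the scaffold of the complex that degrades beta-catenin, was 1.52-fold lower (adjusted p = 0.0083), and missed the threshold without NA16 replicate 1 (log2 change -0.50, adjusted p = 0.07).

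**Figure D4:**
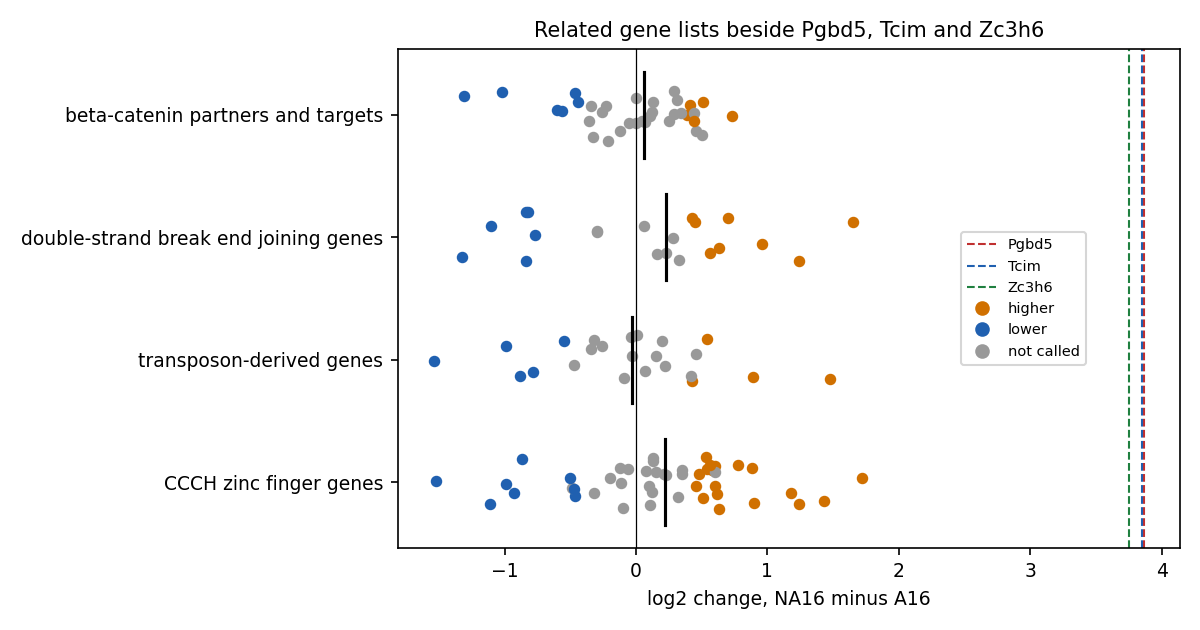
Log2 change from A16 to NA16 (x axis) of each measured gene of 4 lists (y axis), coloured by call, with black lines at the list medians of 0.22, -0.03, 0.23 and 0.06 from the bottom up. Dashed lines mark Pgbd5, Tcim and Zc3h6 at 3.87, 3.85 and 3.75; vertical scatter within a list has no meaning.

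Since Pgbd5 is known from neural tissue, the neuronal markers were set beside it. The summed linear RMA signal of the 5 markers lay between 1870 and 2180 on the A16 arrays and between 3450 and 3750 on the NA16 arrays. Map2, a microtubule protein that is not limited to neurons, was the brightest of the 5. It lay at 10.08 to 10.42 in A16 and 11.41 to 11.54 in NA16 on the log2 scale, so the higher sum is mainly that of Map2. Rbfox3, Syp, Snap25 and Tubb3 had log2 changes of 0.05, -0.10, 0.03 and -0.15, and did not pass in limma. Of 2 measured endothelial markers, Pecam1 was higher by 0.48 (adjusted p = 0.0132) and Kdr was at -0.07, with a sum of 144 to 164 in A16 and 182 to 199 in NA16. The part of these markers in the rise of the 3 genes was not tested.

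The rises of the 3 genes had the same direction under every processing tried. Since the genes were chosen for this rise on the same arrays, the shared direction is no check of it. Where technical replicate 2 was averaged in each state with the array nearest to it, an alternative chosen after seeing the data, the log2 changes were 3.81 for Pgbd5, 3.95 for Tcim and 3.78 for Zc3h6. The lowest change of any alternative was 3.16, for Pgbd5 in the PLIER columns with 16 added, and the highest was 4.95, for the same gene with 16 subtracted from RMA. These are opposite treatments, and the PLIER values already lay at 16 or above before the addition.

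**Figure D5:**
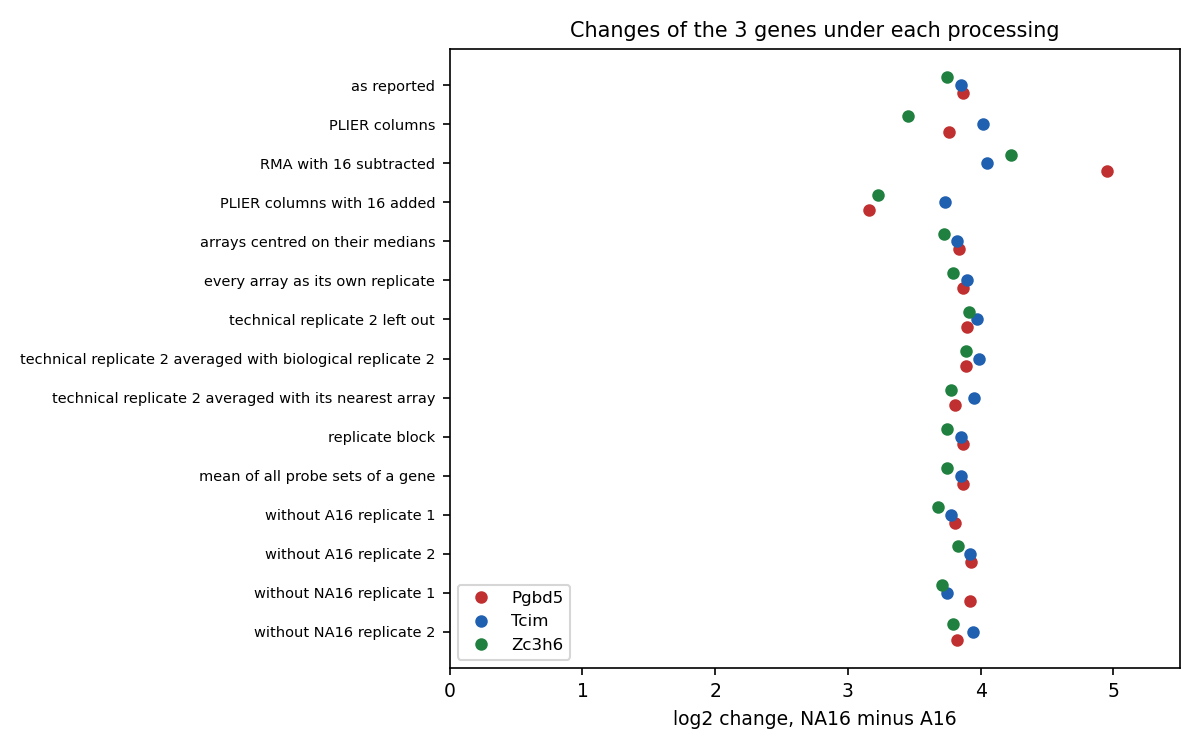
Log2 change from A16 to NA16 (x axis, from 0) of Pgbd5, Tcim and Zc3h6 under the reported and each alternative processing (y axis). Changes lie between 3.16 and 4.95, and those of Pgbd5 spread most, with 16 subtracted or added.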

How the data were processed

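RNA of A16 and NA16 cells was labelled, hybridised and scanned by the authors, who normalized the arrays with RMA and with PLIER in Avadis. The 12 deposited columns hold linear normalized intensities of 6 arrays, once by each algorithm. They lie at 16 or above. No source used here says whether a constant was added, and folds of dim genes depend on that. The array number limits the precision of every value.

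Log2 of each intensity was taken. Probe sets were named by GEO's platform annotation (20826 with 1 symbol, 436 with several, 9780 with none here), of which 20758 matched the RefSeq gene table, and each gene was represented by its brightest probe set over all RMA columns. The states were compared with limma (version 3.58.1, R 4.3.3; lmFit, then eBayes) on 2 replicates each, with Benjamini-Hochberg adjustment over 14217 genes and a threshold of 0.05. The fit was tested on simulated data in which fewer genes changed than were called here. There it called 1.49% of 1.5-fold, 77.6% of 2-fold and 100% of 4-fold changes, and 0.833% of its calls were false. With fewer changed genes the adjustment is stricter, so these shares do not give the missed or false calls of the fit to the real data. A gene that was not called may still have changed. No source used here says what separates biological replicates, so the p-values rest on a spread that may be technical. Where the alternatives of a gene are counted, the 2-fold limit is left out.

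The 3 genes, the gene lists and the comparisons were chosen with earlier results of these data known. Named genes were all probe sets of the 3 genes, up to 4 called genes per list by size of change, Zc3h4, Zc3h8, Pgbd1, Cby1 and Ctnnb1, the 3 nearest measured genes on each side, and the 5 genes with the most similar course. Promoter sequences are RefSeq's for GRCr8.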

Additional observations from a re-analysis of the deposited data

How the results depend on the processing

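The log2 changes of Pgbd5 (3.87), Tcim (3.85) and Zc3h6 (3.75) kept their direction, for which the genes were chosen, under all 14 alternatives run for them. They moved by more than 1 SD in the PLIER columns, to 3.76, 4.02 and 3.45, and with 16 subtracted from RMA, to 4.95, 4.05 and 4.23. In the PLIER columns with 16 added, Pgbd5 was at 3.16 and Zc3h6 at 3.23. With technical replicate 2 averaged with biological replicate 2, Tcim was at 3.99 and Zc3h6 at 3.89, and with it left out Zc3h6 was at 3.91. Without any single replicate they lay between 3.81 and 3.93, 3.75 and 3.94, and 3.68 and 3.83. Of 5524 genes called, 1971 changed at least 2-fold, and so did 6 of 26 called CCCH genes, 2 of 9 of transposon origin, 4 of 14 of end joining and 2 of 11 of beta-catenin. Without any single replicate the counts lay between 4460 and 4647 genes in all, and between 5 and 9 for beta-catenin. Leaving out technical replicate 2 gave 4205 genes in all, with 19 CCCH genes, 8 of transposon origin, 10 of end joining and 5 of beta-catenin. Averaging it with the nearest array, chosen after seeing the data, gave 4620 in all, and 22, 8, 12 and 7 in the same order. The methods' t-test called 4643 genes unadjusted, 1809 of them at least 2-fold, and 20 and 17 after Benjamini-Hochberg adjustment. Same-numbered replicates correlated at 0.535 in their deviations, but they share only a number by the labels; with the number as a replicate block, 7019 genes were called, with 14 of transposon origin and 19 of beta-catenin. By the mean of its probe sets Ttl was called lower, at -0.52. The cause of these shifts was not tested. The signal of Pgbd5 in A16, near the lowest on the arrays, limits the size of its change.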
